A study of Mus musculus with 12 samples.

Results

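Syt11, Susd3, Nav2, Adam12, Klhl4, Cpeb1, B4galnt4, Ntng2 and Usp35 are 9 genes outside the usual helper T cell lists whose mRNA was lower on Day 3 in OTII cells primed without IL-6 in the recipient. They were chosen by that measured difference, so their Day 3 values are given here as a description with no test. The same holds for any comparison of which the Day 3 values are a part. The 9 genes were taken from 40840 counted gene symbols, and all 9 were among the 13570 genes that had enough counts to be tested.

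RNA-seq was performed on OTII cells, CD4+ T cells that carry 1 transgenic T cell receptor for an ovalbumin peptide, after transfer into WT or Il6-/- mice. Per the study, the mice were on the B6 background. Recipients in all 4 groups were sensitized through the nose with house dust mite (HDM) extract to which bacterial endotoxin (LPS) had been added. Ovalbumin free of LPS was given together with it, and the donor cells were sorted from the mediastinal lymph nodes (mLN). The groups were WT Day 3, Il6-/- Day 3, WT Day 5 and Il6-/- Day 5, with 3 libraries each and days as labelled. The Il6 deletion was in the recipient and not introduced into the sequenced donor cells, so the Il6 count of a library checks no label. The study's methods state that male and female mice were used in equal numbers, while the age of the mice and whether the replicates of a group came from separate animals or from pools are not given in the sources used here, and the sample labels name blood as the tissue where the design text names the mLN. The p-values below therefore measure only the spread between these libraries.

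IL-6 is a cytokine that binds its receptor together with gp130 and activates the transcription factor STAT3. In CD4+ T cells this signal acts during priming and influences which helper program the cell takes up. The 9 genes are better known from other settings: Syt11, Nav2 and Ntng2 from neurons, Cpeb1 from germ cells and synapses, Adam12 from muscle, bone and tumors, and the rest from no single tissue.

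By the roles of their products the 9 genes form 3 groups. At the membrane act Syt11, a synaptotagmin of vesicle trafficking that lacks calcium binding, Susd3, a membrane protein with a sushi domain, Adam12, a metalloprotease that sheds membrane-bound growth factors, and Ntng2, a netrin-G protein held by a lipid anchor. Inside the cell act Nav2, a large protein of the cytoskeleton named for its role in axon growth, and Cpeb1, which binds mRNA and sets the length of its poly(A) tail. The remaining products are or serve enzymes: B4galnt4 adds N-acetylgalactosamine to glycans, Klhl4 belongs to the kelch-like adaptors of ubiquitin ligases, and Usp35 removes ubiquitin.

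On GRCm39, 5 of the 9 genes lie on chromosome 7, which holds 943 of the 12596 tested genes with a position (7.49%). These are Nav2 (chr7:48558464-49259838, plus strand), Cpeb1 (chr7:80996774-81105213, minus strand), Usp35 (chr7:96958587-96981374, minus strand), Adam12 (chr7:133484928-133833875, minus strand) and B4galnt4 (chr7:140640862-140652313, plus strand). The starts are spread over the chromosome and no 2 of the 5 genes overlap. The others are Ntng2 (chr2:29084553-29143017, minus strand), Syt11 (chr3:88632134-88682471, minus strand), Susd3 (chr13:49378985-49402182, minus strand) and Klhl4 (chrX:113361270-113470842, plus strand). Nav2 spans 701375 bases with 34002 bases of merged exons, longer than the merged exons of 99.9% of tested genes. Counting ignored the strand, and exons of 3 of the 9 genes overlap another counted gene. Syt11 shares 497 exon bases (5.99%) with Rit1, Nav2 shares 295 (0.868%) with the lncRNA Gm2788, and Ntng2 shares 558 (14.1%) with the lncRNA 6530402F18Rik. None of these 3 overlapping genes passed the test on Day 3 or Day 5 (edgeR quasi-likelihood test, FDR 0.206 and 0.837 for Rit1, 0.711 and 0.0596 for Gm2788, 0.246 and 0.162 for 6530402F18Rik).

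Promoter sequences from RefSeq (GRCm38.p6, 250 bases before to 50 bases after the annotated start) were found for 8 of the 9 genes, with 9 entries since Nav2 has 2 starts. Since the 9 genes were lower together on Day 3, 4 promoters are shown: those of Syt11 and Susd3, the genes called lower on Day 5 as well, and those with the fewest (Klhl4) and the most CG dinucleotides among the one-start genes (B4galnt4). Each is written 5' to 3' on the strand of its gene, and capitals mark CG dinucleotides.
Syt11 (chr3:88772550-88772849, minus strand): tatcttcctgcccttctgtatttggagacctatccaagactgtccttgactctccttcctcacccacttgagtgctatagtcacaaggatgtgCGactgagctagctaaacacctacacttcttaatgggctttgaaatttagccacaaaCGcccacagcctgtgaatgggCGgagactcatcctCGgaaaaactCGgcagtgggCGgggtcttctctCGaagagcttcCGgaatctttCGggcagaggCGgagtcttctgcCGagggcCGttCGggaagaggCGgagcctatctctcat
Susd3 (chr13:49248245-49248544, minus strand): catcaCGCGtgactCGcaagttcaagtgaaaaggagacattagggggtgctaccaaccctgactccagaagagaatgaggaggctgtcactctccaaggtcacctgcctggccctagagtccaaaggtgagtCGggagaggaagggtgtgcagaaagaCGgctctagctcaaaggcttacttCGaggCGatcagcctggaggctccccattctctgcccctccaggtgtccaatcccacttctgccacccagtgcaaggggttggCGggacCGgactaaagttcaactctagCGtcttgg
Klhl4 (chrX:114474083-114474382, plus strand): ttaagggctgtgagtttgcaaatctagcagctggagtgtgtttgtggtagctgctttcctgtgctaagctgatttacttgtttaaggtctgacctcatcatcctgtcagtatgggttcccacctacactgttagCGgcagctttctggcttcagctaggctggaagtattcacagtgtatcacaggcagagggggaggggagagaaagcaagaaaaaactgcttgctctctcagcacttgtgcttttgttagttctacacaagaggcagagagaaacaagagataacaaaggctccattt
B4galnt4 (chr7:141060728-141061027, plus strand): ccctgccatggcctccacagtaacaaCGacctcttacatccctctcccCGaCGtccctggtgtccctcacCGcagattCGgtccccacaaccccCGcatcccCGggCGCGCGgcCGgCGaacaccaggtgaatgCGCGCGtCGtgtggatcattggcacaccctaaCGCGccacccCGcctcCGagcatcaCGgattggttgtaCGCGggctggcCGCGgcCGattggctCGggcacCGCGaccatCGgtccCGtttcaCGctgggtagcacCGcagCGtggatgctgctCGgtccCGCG
The Klhl4 promoter had a GC content of 46.3% and 1 CG, the Syt11 promoter 53.0% and 14, the Susd3 promoter 56.7% and 10, and the B4galnt4 promoter 68.0% and 37. Over all 32851 RefSeq promoters of this length the median was 52.7% and 7. Of the 9 entries, 7 held more CG than this median (10 to 42), and those of Klhl4 and Ntng2 held fewer (1 and 6). The letters TTCNNNGAA, a core to which STAT proteins can bind, were searched on both strands and found in 0 of the 9 entries, against 8.30% of all promoters. The letters TGANTCA, a core of AP-1 sites, were also in 0 of the 9 entries, against 7.81% of all promoters. This says only that these letters are absent from these windows.

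The libraries held 16125947 to 26111657 reads assigned to genes. Levels are given as CPM, read counts relative to the library total after TMM scaling, and, where different genes are compared, as RPKM, which also divides by exon length. The label of the cells held in the markers: all 10 CD4 T cell genes listed were above 1 CPM in every group, with Cd4 at a mean of 861 to 1284 CPM. The summed level of 8 B cell genes was 5.22 to 11.2 CPM in all libraries. Of these, Pax5 was called lower in Il6-/- recipients on Day 3 (means of 0.840 in WT and 0.171 CPM in Il6-/- recipients, FDR = 0.0389, edgeR). Of 9 neuron and glia genes, Rbfox3, Snap25, Gfap and Tubb3 stayed under 1 CPM in each library, while the sum of the list, 233 to 256.5 CPM on Day 3, came mainly from Mbp. Syp, which encodes the synaptic vesicle protein synaptophysin, was the 1 gene of the list called: its mean was 4.65 CPM in WT against 1.42 CPM in Il6-/- recipients on Day 3 (log2 fold change -1.70, FDR = 0.00296, edgeR) and 12.9 against 6.04 CPM on Day 5 (-1.10, FDR = 0.0407), so it moved in the direction of the 9 genes on Day 3. Of 9 stromal and endothelial genes, 8 were under 1 CPM in every group, and the sum, 115 to 119 CPM in WT and 83.2 to 90.3 CPM in Il6-/- recipients on Day 3, came from Pecam1. Pecam1 was called lower on Day 3 (log2 fold change -0.45, FDR = 0.00263, edgeR). The summed level of 7 CD8 T and NK cell genes was 62.4 to 74.3 CPM in WT and 83.5 to 113.5 CPM in Il6-/- recipients on Day 3. This gap came mainly from Klrb1c (means of 4.82 and 20.9 CPM, FDR = 7.7e-06, edgeR) and Cd8b1 (62.65 and 74.69 CPM, FDR = 0.192). Cd8b1 was the largest gene of the list in every group, while Cd8a was at 0.835 and 1.04 CPM on Day 3. On Day 5 Klrb1c was called lower in Il6-/- recipients (log2 fold change -0.60, FDR = 0.0497, edgeR). The summed CD4 T cell genes were lower in Il6-/- than in WT recipients on Day 3, at 5828 to 5967 against 6081 to 6708 CPM, with Cd28 and Cd2 called lower (FDR = 0.00181 and 0.00984, edgeR). On Day 5 Cd3d was called lower (log2 fold change -0.37, FDR = 0.0366, edgeR). Over all libraries the sum of 9 myeloid genes was 6.46 to 40.4 CPM and that of 6 lung epithelium genes 0.692 to 22.5 CPM. Of the lung genes, Sftpc was called higher in Il6-/- recipients on Day 3 (means of 0.052 in WT and 3.27 CPM in Il6-/- recipients, FDR = 0.0407, edgeR). In that Il6-/- group the lung sum was 11.87 CPM in replicate 2, against 0.792 and 1.705 CPM in replicates 1 and 3. The part of such cells in the differences of the 9 genes was not tested. In such bulk samples, fewer cells that express a gene and less RNA of it per cell cannot be told apart.

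Syt11 and Susd3 were the abundant members. On Day 3 in WT recipients their mean RPKM was 11.4 and 27.6, against 0.165 to 0.529 for the other 7 genes. Each of those 7 differed from its neighbour in the order (Nav2, B4galnt4, Cpeb1, Adam12, Klhl4, Usp35, Ntng2) by less than the larger SD of the pair. This RPKM divides by all merged exons of a gene, 34002 bases for Nav2. In CPM, Nav2 was at a mean of 18.0 in WT recipients on Day 3, against 0.655 to 3.84 for the remaining 6 genes. By mean CPM over all 12 libraries, which include the Il6-/- Day 3 group, Syt11 and Susd3 stood above 85.4% and 85.1% of the tested genes. On this measure Nav2 stood above 40.9%, and the remaining 6 above only 18.2% to 23.2%.

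On Day 3, Syt11 was at 97.4, 102 and 84.4 CPM in the 3 WT libraries and at 43.2, 40.4 and 42.9 CPM in the 3 Il6-/- libraries. The Il6-/- libraries lay close together and well under all WT libraries. The fitted log2 fold change of Il6-/- against WT was -1.17 (SE 0.08), a level 2.24-fold lower. Susd3 was at 117, 114 and 115 CPM in WT and at 42.5, 53.1 and 46.0 CPM in Il6-/- recipients. Here too the groups did not overlap, and the log2 fold change was -1.29 (SE 0.10). Each Day 3 library held at least 762 reads of Syt11 and 805 of Susd3.

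Nav2 was intermediate in CPM and in size of difference. The WT libraries held 15.6, 18.9 and 19.5 CPM on Day 3 and the Il6-/- libraries 3.33, 2.49 and 3.03 CPM. The means were 18.0 ± 2.13 and 2.95 ± 0.423 CPM (SD, n = 3), a log2 fold change of -2.60 (SE 0.28).

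Adam12 was the gene with most reads among the 6 low members in WT recipients on Day 3, with 144, 58 and 56 reads (5.61, 2.87 and 3.04 CPM). In Il6-/- recipients 1, 6 and 3 reads were counted (0.0528, 0.318 and 0.142 CPM). Summed over libraries and scaled to their totals, the WT count was 23.6 times the Il6-/- count, with an exact 95% interval of 12.7 to 49.9 that covers counting error only. Cpeb1 had 68, 65 and 48 reads in WT (2.65, 3.21 and 2.60 CPM) and 3, 5 and 1 in Il6-/- recipients (0.158, 0.265 and 0.0474 CPM), a ratio of 18.4 (9.49 to 40.9). Among the 6 low genes Cpeb1 varied least between the WT libraries, with a coefficient of variation of 11.98%.

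B4galnt4 was counted 29, 59 and 39 times in the WT libraries of Day 3 (1.13, 2.92 and 2.12 CPM) and 5, 0 and 2 times in the Il6-/- libraries, a ratio of 16.6 (7.84 to 42.2). Klhl4 was counted 7, 48 and 38 times in WT (0.273, 2.37 and 2.06 CPM) and 0, 0 and 3 times in Il6-/- recipients, a ratio of 28.4 (9.42 to 140.2). Its first WT library was far under the other two, so the size of its difference rested on 2 WT libraries. All 3 Il6-/- reads came from replicate 3. The fitted log2 fold change of Klhl4, -4.77 (SE 1.16), became -7.94 without that library.

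Ntng2 had the fewest reads of the members in WT recipients on Day 3, with 20, 13 and 10 reads in WT (0.780, 0.642 and 0.543 CPM) and 3, 1 and 1 in Il6-/- recipients (0.158, 0.0530 and 0.0474 CPM), a ratio of 7.88 (3.13 to 25.5). Usp35 was counted 50, 17 and 16 times in WT (1.95, 0.840 and 0.868 CPM) and 0, 6 and 4 times in Il6-/- recipients, a ratio of 7.60 (3.94 to 16.4). The first WT library stood above the others for Usp35 and Adam12, and below them for Klhl4 and B4galnt4, so no library was high or low for all low genes.

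In all 9 genes every Il6-/- library of Day 3 lay under every WT library, an order that the choice of the genes favoured. Of all tested genes, 15.7% showed this order, and 6.19% were called lower (7.52% higher) at an FDR under 0.05. The fitted log2 fold changes ran from -1.17 (Syt11) to -4.77 (Klhl4), with a median of -2.87. Leaving out each library in turn kept the value of Adam12 between -5.19 and -4.05, of Cpeb1 between -4.73 and -3.70, of B4galnt4 between -5.19 and -3.49, of Ntng2 between -3.56 and -2.57, and of Usp35 between -3.56 and -2.27.

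**Figure D1:**
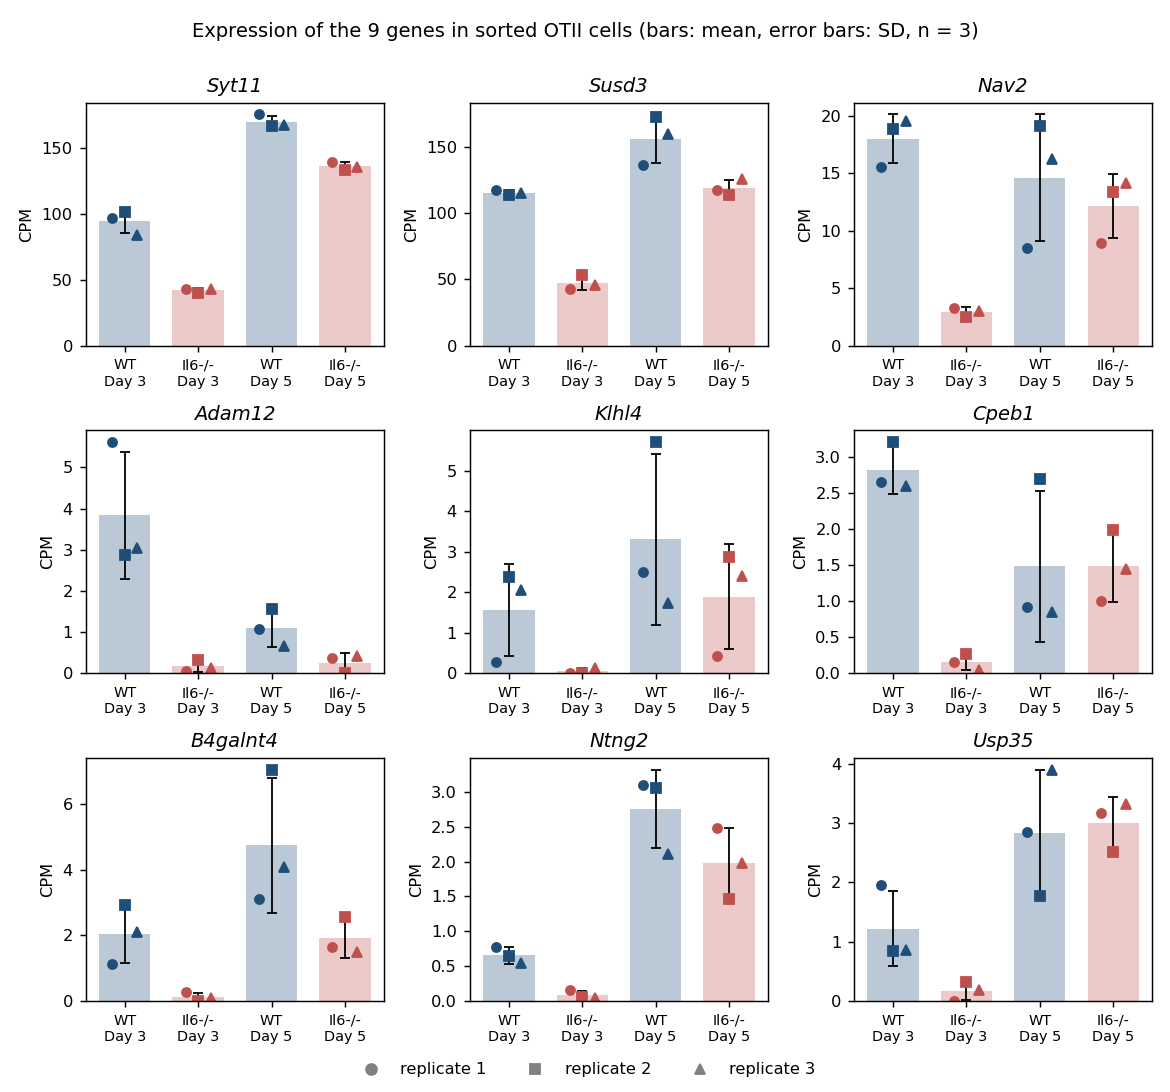
CPM (linear axis from 0, its own scale for each gene) of the 9 genes in the 12 libraries; bars and error bars give mean and SD of 3 libraries (lower error bars end at 0), symbols the replicates, blue WT and red Il6-/- recipients. The Il6-/- Day 3 group is the lowest of the 4 for each gene, and WT Day 5 is the highest for 5 genes, WT Day 3 for 3 and Il6-/- Day 5 for Usp35.

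The Day 5 libraries took no part in the choice of the genes, so the Day 5 difference could be tested. The spread in this test was estimated from all 12 libraries, so the Day 3 libraries entered through the spread. Of the 9 genes, 2 (Syt11 and Susd3) were lower in Il6-/- than in WT recipients at an FDR under 0.05 and 0 were higher (0 also by unadjusted p and by DESeq2), where 3.35% and 1.27% of all tested genes were called in these directions (edgeR quasi-likelihood test, Benjamini-Hochberg over 13570 genes). By unadjusted p under 0.05, 4 of the 9 were lower, against 10.4% of all tested genes. The log2 fold change was below 0 for 8 of the 9 genes, where 48.3% of all tested genes were below 0. The 8 include Cpeb1 at -0.001, which was above 0 with DESeq2 (0.03) and limma-voom (0.16). The median of the 9 was -0.39, while the median over all tested genes was 0.01.

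Syt11 was at 176, 167 and 168 CPM in WT and at 139.5, 133 and 136 CPM in Il6-/- recipients on Day 5. The groups were each tight and did not overlap. The log2 fold change was -0.32 (SE 0.08, 95% interval -0.49 to -0.15, FDR = 0.0294, edgeR), a 1.25-fold lower level. Susd3 was at 136, 172 and 159 CPM in WT and at 117, 113 and 125.5 CPM in Il6-/- recipients, again without overlap although the WT libraries were more spread than on Day 3. Its log2 fold change was -0.39 (SE 0.10, 95% interval -0.60 to -0.19, FDR = 0.0308, edgeR), a 1.31-fold lower level.

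Both calls were close to the threshold. They were lost when the Day 5 libraries were fitted alone (FDR = 0.0685 for Syt11 and 0.0697 for Susd3, edgeR). The Syt11 call was lost without WT Day 5 replicate 1 (FDR = 0.120, edgeR) or 2 (0.0759) and without Il6-/- Day 5 replicate 2 (0.136) or 3 (0.0806). The Susd3 call was lost without WT Day 5 replicate 2 (FDR = 0.130, edgeR) or 3 (0.0505) and without Il6-/- Day 5 replicate 2 (0.147) or 3 (0.0579). The log2 fold change stayed below 0 in each of these fits, between -0.34 and -0.28 for Syt11 and between -0.48 and -0.31 for Susd3 over all 12 omissions.

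Adam12 and B4galnt4 did not pass the adjusted threshold although their groups did not overlap. Adam12 had 21, 30 and 14 reads in WT (1.07, 1.56 and 0.658 CPM) and 7, 0 and 8 in Il6-/- recipients (0.370, 0 and 0.416 CPM) on Day 5. Its log2 fold change was -2.0 (SE 0.69, 95% interval -3.47 to -0.53, FDR = 0.113, edgeR). B4galnt4 had 61, 136 and 87 reads in WT (3.10, 7.06 and 4.09 CPM) and 31, 44 and 29 in Il6-/- recipients (1.64, 2.58 and 1.51 CPM). WT replicate 2 stood above the rest, and the log2 fold change was -1.32 (SE 0.47, 95% interval -2.32 to -0.31, FDR = 0.125, edgeR). With DESeq2 the FDR was 0.0262 for Adam12 and 0.0418 for B4galnt4.

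In total the Il6-/- libraries of Day 5 lay under all WT libraries in 4 of the 9 genes (Syt11, Susd3, Adam12 and B4galnt4), an order that 11.0% of all tested genes showed. The exact two-sided permutation test gave p = 0.1 for each of the 4 genes, the smallest value that 3 against 3 libraries allow. For the other 5 genes the groups overlapped.

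Among those 5, Cpeb1 had almost the same mean in both groups, 1.49 ± 1.05 and 1.48 ± 0.494 CPM (SD, n = 3). The WT libraries were at 0.915, 2.70 and 0.846 CPM and the Il6-/- libraries at 1.01, 1.99 and 1.46 CPM. One WT library set the WT mean: the log2 fold change of 0.00 (95% interval -1.04 to 1.04) became 0.75 without WT replicate 2. Usp35 was at 2.85, 1.77 and 3.90 CPM in WT and at 3.17, 2.52 and 3.33 CPM in Il6-/- recipients, with a log2 fold change of 0.08 (95% interval -0.92 to 1.08, FDR = 0.950, edgeR). These intervals leave room for a difference of about a factor of 2 either way.

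Nav2 was at 8.49, 19.2 and 16.2 CPM in WT and at 8.94, 13.4 and 14.1 CPM in Il6-/- recipients, with a log2 fold change of -0.27 (95% interval -0.80 to 0.26, FDR = 0.615, edgeR). Replicate 1 was the lowest library of both groups. Ntng2 was at 3.10, 3.06 and 2.11 CPM in WT and at 2.49, 1.46 and 1.98 CPM in Il6-/- recipients (log2 fold change -0.48, 95% interval -1.26 to 0.31, FDR = 0.524, edgeR). Klhl4 ran from 1.74 to 5.71 CPM in WT and from 0.423 to 2.87 CPM in Il6-/- recipients (log2 fold change -0.81, 95% interval -2.35 to 0.74, FDR = 0.60, edgeR), so that a difference of several-fold was not detectable at this depth and spread.

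WT Day 5 replicate 2 was the highest of its group for 6 of the 9 genes (Susd3, Nav2, Adam12, Klhl4, Cpeb1 and B4galnt4). Without it, the Day 5 log2 fold change was -0.31 for Susd3, -0.03 for Nav2, -1.66 for Adam12, -0.16 for Klhl4, 0.75 for Cpeb1 and -0.92 for B4galnt4.

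**Figure D2:**
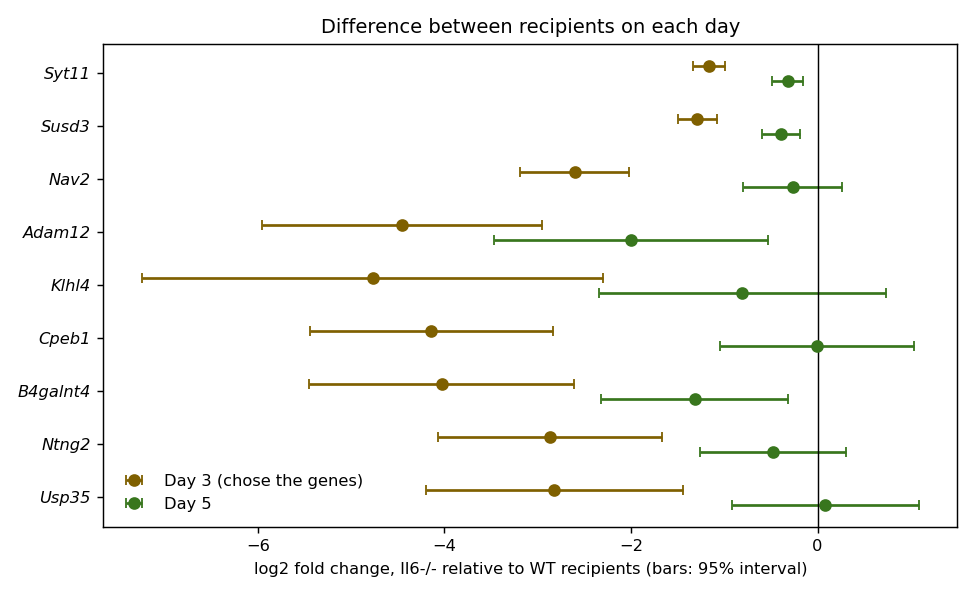
Fitted log2 fold change (Il6-/- relative to WT recipients, horizontal axis) of each gene on Day 3, which chose the genes, and on Day 5, with 95% intervals as bars; 0 is no difference. Day 3 values lie between -4.77 and -1.17, Day 5 values between -2.0 and 0.08, and the Day 5 interval excludes 0 for Syt11, Susd3, Adam12 and B4galnt4 before adjustment for all genes.

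The time courses are described without a test, since they too use the Day 3 libraries. In WT recipients the libraries of Day 5 lay above those of Day 3 without overlap for 4 genes (Syt11, Susd3, B4galnt4 and Ntng2), below them for Adam12, and overlapped for the other 4. Of all tested genes, 33.4% lay above and 29.9% below in this way. In Il6-/- recipients Day 5 lay above Day 3 without overlap for 8 genes, as for 33.1% of all tested genes, and Adam12 overlapped. The median log2 fold change from Day 3 to Day 5 was 0.85 in WT and 3.21 in Il6-/- recipients, against medians of 0.09 in both genotypes over all tested genes.

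Ntng2 showed the steepest time course in WT recipients, from 0.655 ± 0.119 to 2.76 ± 0.560 CPM (SD, n = 3; log2 fold change 2.05, SE 0.40). In Il6-/- recipients it went from 0.0862 ± 0.0625 to 1.98 ± 0.511 CPM, a log2 fold change of 4.44 (SE 0.53). Syt11 went from 94.6 ± 9.07 to 170.1 ± 4.89 CPM in WT (log2 fold change 0.85, SE 0.08) and from 42.2 ± 1.54 to 136 ± 3.05 CPM in Il6-/- recipients (1.69, SE 0.08). Both genotypes thus ended higher than they began, with a smaller gap between them at the end.

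Susd3 went from 115 ± 1.75 to 156 ± 18.3 CPM in WT (log2 fold change 0.44, SE 0.10) and from 47.2 ± 5.39 to 119 ± 6.17 CPM in Il6-/- recipients (1.33, SE 0.10). B4galnt4 went from 2.05 ± 0.894 to 4.75 ± 2.06 CPM in WT and from 0.119 ± 0.134 to 1.91 ± 0.583 CPM in Il6-/- recipients. Klhl4 went from 93 reads in all to 196 in WT and from 3 to 103 in Il6-/- recipients, and Usp35 from 83 to 173 and from 10 to 167. For these 4 genes, as for Syt11 and Ntng2, the mean was higher on Day 5 in both genotypes.

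Adam12, Cpeb1 and Nav2 had a lower mean on Day 5 than on Day 3 in WT recipients. Only for Adam12 did the WT libraries of the 2 days not overlap. Adam12 went from 3.84 ± 1.54 to 1.09 ± 0.450 CPM in WT (log2 fold change -1.82, SE 0.57), while in Il6-/- recipients it stayed at 0.171 ± 0.135 and 0.262 ± 0.228 CPM. It was the one member with no gap between the days in Il6-/- recipients. Cpeb1 went from 2.82 ± 0.338 to 1.49 ± 1.05 CPM in WT (-0.93, SE 0.47) but from 9 to 81 reads in Il6-/- recipients (log2 fold change 3.21, SE 0.63). Nav2 went from 18.0 ± 2.13 to 14.6 ± 5.51 CPM in WT (-0.30, SE 0.24), within the spread of Day 5, and from 2.95 ± 0.423 to 12.1 ± 2.81 CPM in Il6-/- recipients (2.04, SE 0.28).

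The Il6-/- level on Day 5 was therefore set beside the WT level on Day 3. It lay above the WT Day 3 libraries for 3 genes: Syt11 (133 to 139.5 against 84.4 to 102 CPM), Ntng2 (1.46 to 2.49 against 0.543 to 0.780 CPM) and Usp35 (2.52 to 3.33 against 0.840 to 1.95 CPM). It overlapped them for 3 genes (Susd3, Klhl4 and B4galnt4). It lay below them for the other 3: Nav2 (8.94 to 14.1 against 15.6 to 19.5 CPM), Cpeb1 (1.01 to 1.99 against 2.60 to 3.21 CPM) and Adam12 (0 to 0.416 against 2.87 to 5.61 CPM). With 30.9% of all tested genes above and 30.4% below, these 3 and 3 genes are near the shares of all genes.

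The log2 fold change of Il6-/- against WT was less negative on Day 5 than on Day 3 for all 9 genes, by 0.85 (Syt11) to 4.14 (Cpeb1) with a median of 2.45. Genes selected for a low Day 3 value will in part show this by the selection, and no test is given. Over all tested genes, 4.92% differed between the days in either direction at an FDR under 0.05.

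The course of each gene over the 12 libraries was compared with that of all other tested genes by Pearson's r of log2 CPM. The 12 points share their libraries and the strong difference of the Il6-/- Day 3 group, so r is a description only. For Syt11 the most alike were Pear1, a receptor of platelets and endothelium (r = 0.988), and Selenop, a selenium carrier (r = 0.984). For Susd3 they were Gramd4 (r = 0.988) and the tyrosine phosphatase gene Ptpn1 (r = 0.970). For Nav2 they were Tox2, a transcription factor of the HMG-box family (r = 0.953), and the calcium-dependent kinase gene Camk4 (r = 0.949).

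Of the low genes, Ntng2 was most like Gm51710 (r = 0.991) and Txnip (r = 0.985), Usp35 most like Rdh12 (r = 0.970) and Gm51653 (r = 0.968), and B4galnt4 most like Atcay (r = 0.967). Klhl4 was most like E130215H24Rik (r = 0.960) and Ikzf3, which encodes the lymphoid zinc finger factor Aiolos (r = 0.949). Cpeb1 was most like Plec (r = 0.930) and Nav2 (r = 0.930), the one pair of members in these lists. Adam12 had the least similar partners, Trp53i13 (r = 0.920) and Raver2 (r = 0.919).

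Tox2, the closest gene to Nav2, was at a mean of 116.8 and 25.4 CPM in WT and Il6-/- recipients on Day 3 and at 101.5 and 63.2 CPM on Day 5. Pear1, the closest to Syt11, was at 28.9 and 11.9 CPM on Day 3 and at 58.9 and 48.7 CPM on Day 5. Other partners matched in order but moved far less: the Day 3 log2 fold change was -0.48 for Plec, against -4.14 for Cpeb1, and -1.26 for Atcay, against -4.03 for B4galnt4.

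Among the 36 pairs of the 9 genes, r over the 12 libraries ran from 0.25 to 0.98 with a median of 0.79, as genes picked for 1 common difference would show. After the mean of each group was removed, r ran from -0.91 (B4galnt4 and Usp35) to 0.63 (Nav2 and B4galnt4) with a median of 0.04, and 17 of the 36 were negative.

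**Figure D3:**
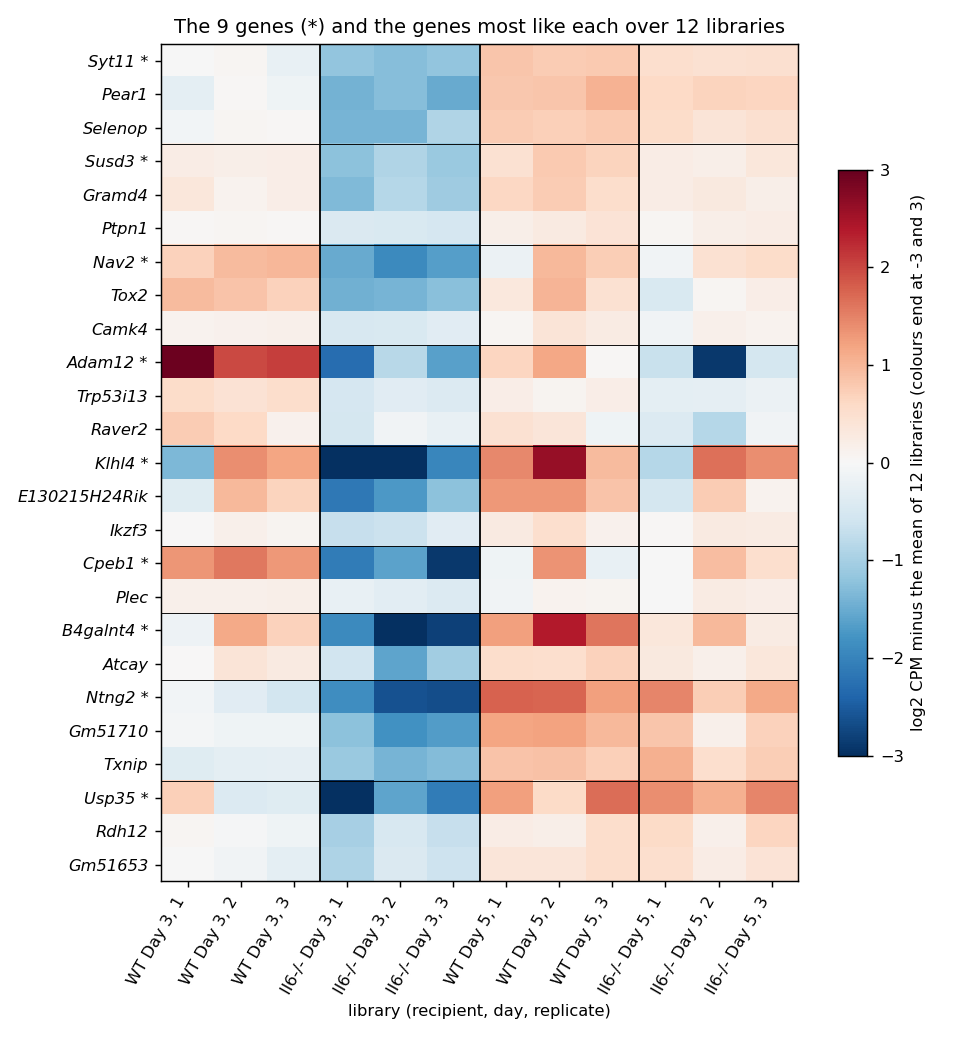
log2 CPM minus the mean of the 12 libraries (colour; the scale ends at -3 and 3) for the 9 genes, marked with an asterisk, each followed by the 1 or 2 genes most like it that are named in the text, in the 12 libraries grouped by recipient and day. The Il6-/- Day 3 block is below the mean in all 9 genes; Adam12 (r = 0.920 with Trp53i13) is the one of the 9 also below its mean in all 3 Il6-/- Day 5 libraries.

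To see whether the differences extended to the gene families, 155 relatives were listed, of which 148 were counted and 88 were tested. On Day 3, 7 of the 88 (7.95%) were lower in Il6-/- recipients and 4 (4.55%) higher at an FDR under 0.05, where 6.19% and 7.52% of all tested genes were called. On Day 5, 4 (4.55%) were lower and 1 (1.14%) higher, where 3.35% and 1.27% of all were called. With the replicate number as a block, which on Day 5 marks libraries that deviated together, 8 of the 88 were lower and 7 higher on Day 5, where 6.30% and 5.43% of all tested genes were called in that fit. The median log2 fold change of the 88 was 0.00 on Day 3 and 0.01 on Day 5. The relatives named below are single genes. The members were chosen for a low Day 3 value and the relatives were not. A Day 3 contrast between them therefore does not show that a difference is particular to the member.

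Of the Syt11 relatives, 7 were tested. Syt13 fell on Day 3, from 3.06 ± 0.341 to 0.898 ± 0.0516 CPM (log2 fold change -1.76, SE 0.50, FDR = 0.0301, edgeR). Esyt2, which tethers the endoplasmic reticulum to the plasma membrane, fell on Day 5, from 171 ± 28.1 to 117 ± 15.5 CPM (log2 fold change -0.54, SE 0.13, FDR = 0.0314, edgeR). Of 4 tested Susd3 relatives, Susd1 fell on both days, from 5.48 ± 0.939 to 2.08 ± 0.301 CPM on Day 3 (log2 fold change -1.39, SE 0.26, FDR = 0.00222, edgeR) and from 3.82 ± 0.475 to 1.94 ± 0.372 CPM on Day 5 (-0.98, SE 0.26, FDR = 0.0449). The Day 3 call of Susd1 held with each of the 12 libraries left out, but its Day 5 call was lost in 11 of these 12 fits (FDR 0.0519 to 0.140, edgeR; it held without WT Day 5 replicate 3) and with limma-voom (0.0681). The Syt13 call was lost without any 1 of the 6 Day 3 libraries (0.0588 to 0.101), and the Esyt2 call without WT Day 5 replicate 1 or 2 or Il6-/- Day 5 replicate 2 or 3 (0.0650 to 0.154).

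Of 24 tested kelch-like genes, 3 (12.5%) fell on Day 3 and 0 rose by edgeR (1 by unadjusted p under 0.05, 0 by DESeq2). Of all tested genes, 6.19% were called lower and 7.52% higher on that day. Klhl6, a gene of lymphocytes, was by far the most abundant, with 219 ± 6.78 CPM after priming in WT mice and 148 ± 14.1 CPM after priming in Il6-/- mice (log2 fold change -0.57, SE 0.08, FDR = 0.000461, edgeR). On Day 5 Klhl6 was at 212 ± 12.7 and 206 ± 11.9 CPM (log2 fold change -0.04, FDR = 0.856). Klhl3 was lower on Day 3 (log2 fold change -0.65, FDR = 0.0123, edgeR) and on Day 5 (-0.58, FDR = 0.0282), and Klhl24 on Day 3 (-0.55, FDR = 0.0247). The Day 3 call of Klhl6 held with each library left out. That of Klhl3 was lost without replicate 2 of either Day 3 group (FDR 0.0510 to 0.0627, edgeR), that of Klhl24 without WT Day 3 replicate 2 or 3 or Il6-/- Day 3 replicate 1 (0.0727 to 0.120), and the Day 5 call of Klhl3 without replicate 2 or 3 of either Day 5 group (0.0615 to 0.154). None of the 3 was changed by as much as 2-fold. Klhl4 itself, chosen for its low Day 3 level, was at 3.52% of its WT count on Day 3.

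Ntn1, a secreted guidance protein and 1 of 2 tested netrin relatives, fell on Day 3 from 1.42 ± 0.341 to 0.304 ± 0.134 CPM (log2 fold change -2.19, SE 0.52, FDR = 0.0117, edgeR), a call lost without replicate 2 of either Day 3 group (0.0535 to 0.0571). On Day 5 it did not pass (log2 fold change -0.99, FDR = 0.25, edgeR). The 2 tested Cpeb genes gave 0 calls on either day by edgeR, DESeq2 or limma-voom, and 0 had an unadjusted p under 0.05. The 7 tested ADAM genes gave 0 calls by edgeR, with 1 lower on Day 3 and 1 higher on Day 5 by unadjusted p, the latter called by DESeq2. The 2 tested relatives of B4galnt4 gave 0 calls by edgeR, yet both were higher on Day 3 by unadjusted p under 0.05 and 1 was called higher by DESeq2, opposite to B4galnt4. Neither Nav1 nor Nav3 had enough counts to be tested. Cpeb4, the more abundant Cpeb gene, was at 7.52 ± 0.887 and 7.33 ± 1.76 CPM on Day 3, while Cpeb1 was at 2.82 and 0.157 CPM. The other tested relative, Cpeb2, had a lower Day 3 mean without IL-6, a difference that was not called. Its level went from 1.215 ± 0.254 to 0.637 ± 0.195 CPM (log2 fold change -0.93, SE 0.47, FDR = 0.223, edgeR).

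Of 40 tested ubiquitin-specific proteases, 1 (2.5%) fell and 4 (10%) rose on Day 3 by edgeR, where 6.19% and 7.52% of all tested genes were called. By unadjusted p under 0.05, 2 were lower and 11 higher, and DESeq2 called 1 lower and 5 higher. The share of all tested genes at that unadjusted p on Day 3 was not computed. Usp18, an interferon-induced enzyme that removes ISG15, went from 18.5 ± 2.13 to 8.62 ± 1.85 CPM (log2 fold change -1.10, SE 0.28, FDR = 0.0178, edgeR). The 4 that rose did so by little: Usp10 by 0.34 (FDR = 0.0195, edgeR), the proteasome-bound Usp14 by 0.34 (0.00925), the p53 pathway enzyme Usp7 by 0.27 (0.0264) and the histone H2A enzyme Usp16 by 0.26 (0.0342) on the log2 scale. On Day 5, Usp30, an enzyme of the outer mitochondrial membrane, fell from 16.2 ± 1.48 to 7.33 ± 1.09 CPM (log2 fold change -1.14, SE 0.16, FDR = 0.00181, edgeR), and Usp37 rose (0.50, FDR = 0.00693). The calls of Usp30 and Usp37 held with each library left out. Those of Usp7 and Usp16 were lost without any 1 of the 6 Day 3 libraries (FDR 0.0501 to 0.131, edgeR; Usp16 also without Il6-/- Day 5 replicate 2) and with upper-quartile scaling (0.0607 and 0.0659). That of Usp10 was lost without WT Day 3 replicate 2 or 3 or Il6-/- Day 3 replicate 1 (0.0692 to 0.113), that of Usp14 without WT Day 3 replicate 2 (0.0570), and that of Usp18 without WT Day 3 replicate 3 or Il6-/- Day 3 replicate 2 (0.0666 to 0.0879). Exons of Usp14, Usp30 and Usp37 overlap those of Thoc1 (27.3%), Alkbh2 (32.2%) and Vil1 (11.3%). Counting ignored the strand, and HTSeq sets reads that fit more than 1 counted gene apart as ambiguous. The effect of these overlaps on the counts was not tested.

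**Figure D4:**
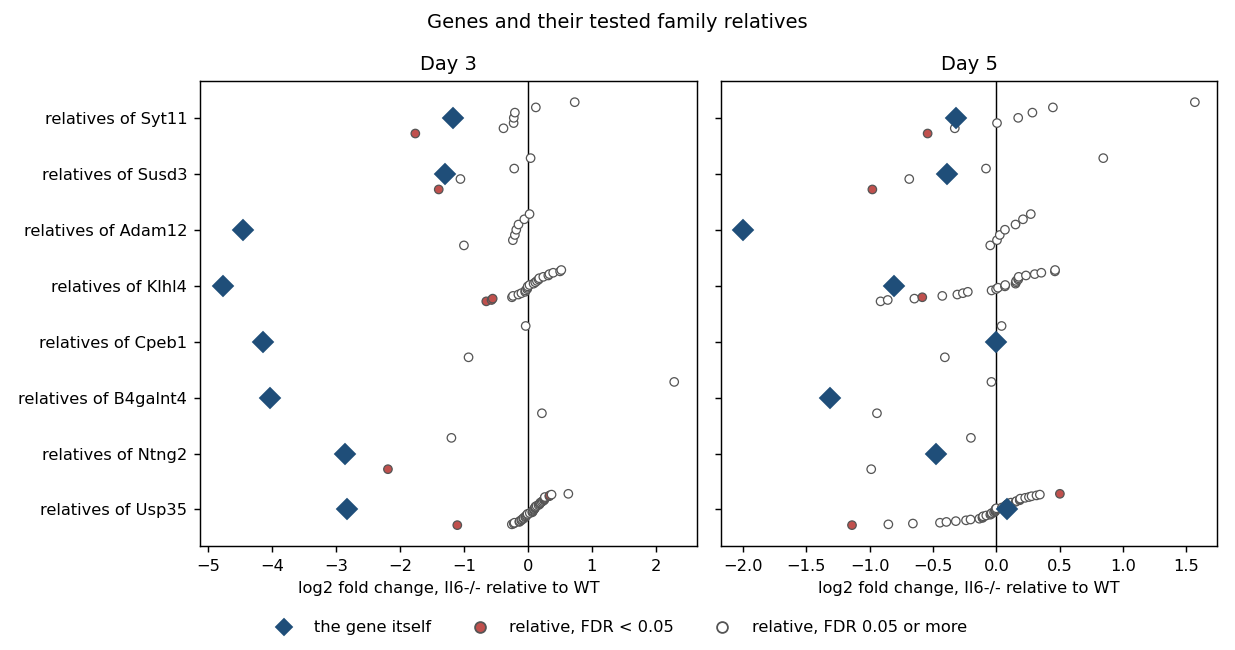
log2 fold change (Il6-/- relative to WT recipients; the 2 panels have different horizontal scales) of each tested relative (circles, filled where FDR < 0.05) by family, with the family's own member as a diamond; Nav2 is not drawn since neither of its relatives was tested. Filled circles number 11 on Day 3 and 5 on Day 5 among 88 relatives, and on Day 3 the diamonds lie at -1.17 or lower while most circles lie near 0. The genes drawn as diamonds, not the relatives, were chosen for a low Day 3 value.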

How the data were processed

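RNA was isolated from sorted OTII cells and sequenced as single-end reads of 50 bases. Per the study's methods, the authors used Trim Galore 0.4.4 for trimming, STAR 2.5.2a for alignment to GRCm39 and HTSeq 0.6.1p1 for unstranded counting. The deposited files hold raw read counts per gene, and the 5 HTSeq summary lines were left out (not unique 23.7% to 28.2% of reads, no feature 11.7% to 17.3%, ambiguous 1.96% to 2.28%). The authors also deposited a table of log2 CPM for 11258 genes, used only as an alternative. There were 0 unused columns of per-sample values.

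The members and all lists were chosen with earlier results of these data known. Counts were fitted in R 4.3.3 with edgeR 4.0.16 (filterByExpr, TMM, quasi-likelihood, 1 coefficient per group over the 12 libraries; biological coefficient of variation 0.132), and p-values were adjusted over 13570 genes (Benjamini-Hochberg, threshold 0.05). The study's own 2-fold limit was an alternative. Precision at these depths is set by the number of reads behind each value, given in the text, and exact intervals of ratios cover counting error only. No pair of libraries agreed within sampling noise. Correlations were taken on log2 CPM after adding a prior count of 2. Exon lengths and positions came from GENCODE vM39 on GRCm39, matched by symbol, and promoters from RefSeq on GRCm38.p6.

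Named genes were the 9 members, every relative called on either day, the 2 genes most like each member (1 item is not reported here) and genes overlapping a member. Deviations of same-numbered libraries correlated on Day 5 (r = 0.243, 0.207 and 0.129) and far less on Day 3 (0.0333, 0.0599 and 0.0325). On both days r with any other number was lower, though barely for replicate 3 on Day 3 (0.0306). The sample labels state no pairing. The tests reported carry no block, and the fit with the block is an alternative. It called 2658 genes on Day 3 and 1592 on Day 5, against 1861 and 626 without the block. Alternatives were other scalings, other filters, DESeq2 1.42.0, limma 3.58.1 (voom, and trend on the deposited log2 values after adding 1 to the CPM), the replicate block, 1 day alone and leaving out each library. Scripts were tested on simulated data.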

Additional observations from a re-analysis of the deposited data

Results flagged for a closer look

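For 2 relatives the change from WT to Il6-/- recipients differed between the days by the interaction test of edgeR. The log2 fold change of Klhl6 was higher on Day 5 than on Day 3 by 0.53 (SE 0.12, FDR = 0.0209), from -0.57 to -0.04. That of Usp30 was lower on Day 5 by a difference of -1.33 (SE 0.22, FDR = 0.00532), from 0.19 to -1.14. Exons of Usp30 overlap Alkbh2 and Svop, and the effect of this overlap on the Usp30 count was not tested.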

How the results depend on the processing

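Of the 9 genes, 2 were called lower on Day 5. The count was 0 with a 2-fold limit, with no scaling beyond the total count and with the libraries of that day alone, 4 with no low-count filter and 4 with DESeq2 (adding Adam12 and B4galnt4), and 0 to 2 with 1 library left out (0 without WT Day 5 replicate 2 or Il6-/- Day 5 replicate 2 or 3, 1 without WT Day 5 replicate 1 or 3). With the replicate block it stayed at 2. No gene was called higher on Day 5 in any setting.

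For the relatives, the 7 lower on Day 3 became 4 with the 2-fold limit and 3 to 9 with 1 library left out (3 without WT Day 3 replicate 2 or Il6-/- Day 3 replicate 2, 4 without WT Day 3 replicate 3). The 4 higher on Day 3 became 0 with the 2-fold limit, 2 with upper-quartile scaling, 2 with no scaling, 7 with DESeq2, 8 with the replicate block, 7 with that day alone and 1 to 5 with 1 library left out (1 without WT Day 3 replicate 3 or Il6-/- Day 3 replicate 1, 2 without replicate 2 of either Day 3 group). The 4 lower on Day 5 became 1 with the 2-fold limit, 8 with DESeq2, 8 with the replicate block, 2 with that day alone and 1 to 7 with 1 library left out (1 without WT Day 5 replicate 2 or Il6-/- Day 5 replicate 2 or 3, 2 without WT Day 5 replicate 1, 7 without WT Day 5 replicate 3). The 1 higher on Day 5 became 0 with the 2-fold limit, 2 with DESeq2's size factors in edgeR, 5 with no scaling, 3 with no filter, 5 with DESeq2, 7 with the replicate block, 0 with that day alone and 1 to 2 with 1 library left out (2 without Il6-/- Day 5 replicate 1). The cause was not tested. No direction of a called gene reversed in these settings.

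On the deposited log2 values with 1 added to the CPM, low genes had smaller Day 3 differences by construction, such as -1.16 for Klhl4 and -0.60 for Ntng2.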
